A study of Mus musculus with 21 samples.

Results

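The comparison concerned 3 truncated parathyroid hormone (PTH) peptides that lack the first residues of the hormone: the human fragment hPTH(7-34) and the bovine fragments bPTH(3-34) and bPTH(7-34). It used 9 of the 21 arrays of the study, 3 arrays of hPTH(7-34) against the 6 arrays of both bovine fragments pooled. Arrays were assigned by their treatment label, and the compounds to compare were chosen with earlier results of these data known. All 22180 genes with a symbol of their own entered the test. The cells were osteoblasts, the bone-forming cells, grown from the calvaria (skull bones) of C57BL/6J mice aged 7 to 10 days, at passage 2, with osteogenic medium from day 3 and serum withdrawn on day 10 for 24 h. Every group, vehicle included, then received its treatment for 4 h in serum-free medium with albumin, and 100 ng of total RNA per culture was hybridised to an Affymetrix Mouse Gene 2.0 ST array. Cells were isolated separately for each of the 3 biological replicates per group.

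hPTH(7-34) was used at 100 nM and came from Prospec. bPTH(3-34) was used at 100 nM and bPTH(7-34) at 1000 nM, both from Bachem, and the latter was the modified peptide (D-Trp12,Tyr34)-bPTH(7-34) amide. The human and bovine peptides therefore differed in species sequence and supplier, and in part in length, modification and dose, and these cannot be told apart. The 1 pair at a matched dose is hPTH(7-34) and bPTH(3-34). It was tested on its own, while bPTH(7-34) is given side by side at its own dose. The other groups were a vehicle control and 3 peptides with an intact first residue, hPTH(1-31), hPTH(1-34) and PTH(1-36), each at 100 nM.

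PTH signals through PTH1R, a receptor coupled to Gs, adenylyl cyclase and cyclic AMP, and the first residues of the hormone are needed to activate it. Fragments that begin further along the chain bind the receptor but activate it weakly or not at all, and they have long served as antagonists or as probes of signalling other than cyclic AMP. Osteoblasts, and the macrophages that accompany them in calvarial cultures, also carry receptors of innate immunity such as TLR2, which act through the transcription factor NF-kappaB. NF-kappaB turns on chemokines, TNF and its own inhibitors, and interferon-regulated factors turn on antiviral and GTPase genes.

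The genes that separated hPTH(7-34) from the bovine fragments included many such inflammatory genes. Signals are the deposited values, read as log2, and the threshold for a call was an adjusted p of 0.05 (limma over all 21 arrays, Benjamini-Hochberg over 22180 genes). With hPTH(7-34), 18 genes were higher and 3 lower than with the bovine fragments, which is 0.0812% and 0.0135% of all genes tested and 0.0947% together. Among the higher genes were the chemokine genes Cxcl10, Ccl12 and Ccl2, the cytokine gene Tnf, the receptor genes Tlr2, Clec4e and Gpr84, the NF-kappaB inhibitors Tnip3 and Nfkbie, and the itaconate enzyme Acod1. Of the 21 genes, 16 differed by at least 1.5-fold and 8 by at least 2-fold. The calls rested on the estimate of spread over all groups: with the 9 arrays alone, 0 genes were called and the smallest adjusted p was 0.0954. The differences themselves cannot change in that fit. The 21 genes, picked on these same arrays, had an unadjusted p of at most 0.00143 in it. In that fit 1585 genes had an unadjusted p under 0.05, against 1508 in the fit over all arrays.

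Promoter sequences are shown for genes of the higher set because these genes moved together and several belong to one pathway. RefSeq (GRCm38.p6) gave the 250 bases before the transcription start for 15 of the 21 genes, 12 higher and 3 lower. The published NF-kappaB consensus, searched on both strands, matched the window of 5 of the 12 higher genes (Cxcl10, Tnip3, Nfkbie, Tlr2 and Irf1) and 0 of the 3 lower genes, and 3.9% of all 32851 windows of that length. For Irf1 the match was in 1 of its 2 listed windows, and the 2 matches in Tlr2 overlapped. The interferon-type motif (GAAA, any 2 bases, GAAA), on both strands, matched Cxcl10 and Gm12250, and 2.98% of all windows. The cyclic AMP response motif TGACGTCA matched 0 of the 15 genes and 1.55% of all windows. A match is a string of letters and not evidence of binding. In the 4 windows below, written 5′ to 3′ on the strand of the gene, capitals mark the matches. In Cxcl10 the first is the interferon-type motif and the other two are NF-kappaB matches, in Tnip3 and Nfkbie they are NF-kappaB matches, and in Gm12250 both are the interferon-type motif read on the opposite strand.
Cxcl10 (chr5:92348890-92349139, minus strand): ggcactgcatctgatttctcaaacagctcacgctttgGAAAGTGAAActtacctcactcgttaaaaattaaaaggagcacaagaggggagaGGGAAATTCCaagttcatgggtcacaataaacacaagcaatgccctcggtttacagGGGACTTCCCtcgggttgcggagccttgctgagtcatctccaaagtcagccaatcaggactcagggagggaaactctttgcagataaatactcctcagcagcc
Tnip3 (chr6:65590148-65590397, plus strand): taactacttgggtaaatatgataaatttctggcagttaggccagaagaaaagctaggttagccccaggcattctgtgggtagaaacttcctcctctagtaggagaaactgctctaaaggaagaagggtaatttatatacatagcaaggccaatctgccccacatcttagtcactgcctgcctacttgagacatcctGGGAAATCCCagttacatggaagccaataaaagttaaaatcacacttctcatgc
Nfkbie (chr17:45555450-45555699, plus strand): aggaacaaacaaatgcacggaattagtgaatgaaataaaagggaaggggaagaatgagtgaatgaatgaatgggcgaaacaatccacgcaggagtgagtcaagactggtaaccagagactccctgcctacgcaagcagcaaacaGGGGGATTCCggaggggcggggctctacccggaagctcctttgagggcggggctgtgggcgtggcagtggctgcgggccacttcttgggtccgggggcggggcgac
Gm12250 (chr11:58183593-58183842, plus strand): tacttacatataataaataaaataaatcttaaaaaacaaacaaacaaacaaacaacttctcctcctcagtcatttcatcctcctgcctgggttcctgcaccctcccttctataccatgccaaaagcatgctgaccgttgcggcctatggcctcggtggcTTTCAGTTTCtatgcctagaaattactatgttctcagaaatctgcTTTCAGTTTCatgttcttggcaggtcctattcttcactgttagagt

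The arrays were alike in overall distribution. The medians of the 9 arrays lay between 3.49 and 3.57, the correlation across genes between arrays of one group was 0.991 to 0.993, and that of hPTH(7-34) arrays with bovine arrays was 0.990 to 0.994. The labelled cell type was checked against 7 osteoblast markers: Col1a1, the main bone collagen, gave signals of 13.17 to 13.28 in the truncated-peptide and vehicle arrays, whereas Bglap, the late marker osteocalcin, gave 2.92 to 4.22, close to the array medians. Macrophage markers were plainly present, as Cd68 at 11.07 to 11.56 and Lyz2 at 12.15 to 12.52 in the same arrays show. RNA came from whole cultures, so more cells of a type and more RNA per cell cannot be told apart.

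Chemokines that recruit monocytes and lymphocytes gave some of the clearest separations. Cxcl10, a ligand of CXCR3 and a classic interferon- and NF-kappaB-induced gene, had signals of 7.33, 7.25 and 8.21 with hPTH(7-34). It had 6.40, 5.99 and 5.87 with bPTH(3-34), 6.02, 6.08 and 5.82 with bPTH(7-34), and 5.99, 6.18 and 5.82 with vehicle. All 3 hPTH(7-34) arrays stood above all others of this set, and replicate 3 stood highest. The difference from the bovine fragments was 1.57 ± 0.21 (SE) on the log2 scale, or 2.96-fold, with an adjusted p of 0.00188 in limma.

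Ccl12, a mouse ligand of the monocyte receptor CCR2, measured 6.13, 6.12 and 6.47 with hPTH(7-34). The bPTH(3-34) arrays gave 5.05, 5.05 and 5.44, and the bPTH(7-34) arrays 5.27, 5.28 and 5.23. The bovine arrays lay within the span of vehicle (5.00 to 5.53) and did not reach the hPTH(7-34) arrays. The difference was 1.02 ± 0.13, or 2.03-fold (adjusted p = 0.00188). Ccl2, the main CCR2 ligand, measured 7.53, 7.57 and 8.41 against 6.95, 6.67 and 6.98 with bPTH(3-34) and 7.15, 6.77 and 7.19 with bPTH(7-34). Its difference of 0.89 ± 0.16 (adjusted p = 0.0418) was called but not firm: it lost the call in 8 of 9 fits that left out 1 array, and without hPTH(7-34) replicate 3 it was 0.60 (adjusted p = 0.196). Ccl7, another chemokine for monocytes, differed by 0.68 and missed the threshold (adjusted p = 0.0742). Of the 20 monocyte and lymphocyte chemokines measured, 3 were called higher and 0 lower, where 0.0812% of all genes were called higher. Their median difference was 0.14 against 0.01 over all genes. The members were chosen with results of these data known, so the count is not independent support. Of the 7 neutrophil-attracting chemokines, 0 were called; Cxcl5 had the largest difference, 0.50 (adjusted p = 0.143).

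Tnf was the one called gene among 27 inflammatory cytokines and receptors, whose median difference was 0.05. Over all genes 0.0812% were called higher, and the members of the list were chosen with results of these data known. TNF, a cytokine that itself activates NF-kappaB, had signals of 7.27, 7.30 and 7.74 with hPTH(7-34). The bPTH(3-34) arrays gave 6.55, 6.34 and 6.32, the bPTH(7-34) arrays 6.81, 6.43 and 6.38, and the vehicle arrays 6.36, 6.85 and 6.26. The vehicle and bovine arrays overlapped and the hPTH(7-34) arrays lay above them all, by 1.95-fold over the bovine fragments (0.96 ± 0.14, adjusted p = 0.00454). Without hPTH(7-34) replicate 3 the difference was 0.81 and the adjusted p 0.0577. Il6, which the intact peptides are known to raise in osteoblasts, differed by -0.06 with a 95% interval of -0.50 to 0.39.

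Innate receptors and an enzyme of activated myeloid cells included the largest difference of the comparison. Acod1 makes itaconate, an antimicrobial metabolite of activated macrophages. Its signals were 5.90, 6.08 and 7.22 with hPTH(7-34), against 4.66, 4.19 and 3.97 with bPTH(3-34) and 4.46, 4.72 and 4.60 with bPTH(7-34). The vehicle arrays, at 4.46, 4.82 and 3.92, spanned the bovine values. The difference was 1.97 ± 0.23, or 3.91-fold (adjusted p = 0.00112), and 1.56 without hPTH(7-34) replicate 3 (adjusted p = 0.00308).

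Gpr84, a receptor for medium-chain fatty acids on myeloid cells, measured 5.82, 5.84 and 6.66 with hPTH(7-34) and between 4.38 and 4.97 in the bovine arrays (2.70-fold, adjusted p = 0.0012). Clec4e, the C-type lectin Mincle that senses microbial glycolipids, measured 7.60, 7.55 and 8.19 against 6.45 to 7.04 (2.22-fold, adjusted p = 0.00188). Tlr2, the receptor for bacterial lipoproteins, measured 7.52, 7.56 and 7.92 against 6.74 to 7.04 (1.72-fold, adjusted p = 0.00112). In each of these receptor genes the hPTH(7-34) arrays stood clear of the bovine arrays, as the rule for naming genes required. Tlr2 and Clec4e were the 2 called genes among 26 pattern receptors and adaptors, where 0.0812% of all genes were called higher. Of the 26, 5 (19.2%) had all 3 hPTH(7-34) arrays above all 6 bovine arrays, against 2.12% of all genes. In this list 23 of the 26 had a difference above 0, against 51.9% of all genes, and its members were chosen with results of these data known. The inflammasome gene Nlrp3 differed by 0.58 (adjusted p = 0.202).

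Feedback inhibitors of NF-kappaB included the smallest adjusted p of the comparison. Tnip3, which binds the deubiquitinase A20 and restrains NF-kappaB, measured 7.26, 7.36 and 7.73 with hPTH(7-34). It measured 6.43, 6.28 and 6.19 with bPTH(3-34) and 6.57, 6.38 and 6.08 with bPTH(7-34). The vehicle arrays (6.13 to 6.59) overlapped the bovine ones, and the hPTH(7-34) arrays were higher by 2.19-fold (1.13 ± 0.12, adjusted p = 0.000487). Nfkbie, the inhibitor IkappaB-epsilon, measured 7.02, 6.88 and 7.43 against 6.20 to 6.41 (1.78-fold, adjusted p = 0.00232).

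The remaining genes of the NF-kappaB list leaned the same way without passing the test. Of 24 subunit and feedback genes measured, 2 were called higher and 0 lower, where 0.0812% of all genes were called higher. A difference above 0 was seen in 23 of the 24, against 51.9% of all genes. In 11 of the 24 (45.8%) all 3 hPTH(7-34) arrays lay above all 6 bovine arrays, against 2.12% of all genes; the members were chosen with results of these data known, so these counts describe the list and are not independent support. The median difference was 0.25. Nfkb2, the p100 subunit, differed by 0.51 (adjusted p = 0.141) and Bcl3, a nuclear IkappaB protein, by 0.46 (adjusted p = 0.186). Averaged over the 24 genes and set against the vehicle mean, the hPTH(7-34) arrays stood at 0.31, 0.30 and 0.39 on the log2 scale. The bovine arrays lay between 0.02 and 0.06, and the vehicle arrays between -0.06 and 0.12. Intact-peptide arrays stood at 0.41, 0.32 and 0.27 with hPTH(1-34) and 0.26, 0.30 and 0.26 with hPTH(1-31). Those of PTH(1-36) stood at 0.24, 0.14 and 0.15, so the shift was not particular to hPTH(7-34).

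**Figure D1:**
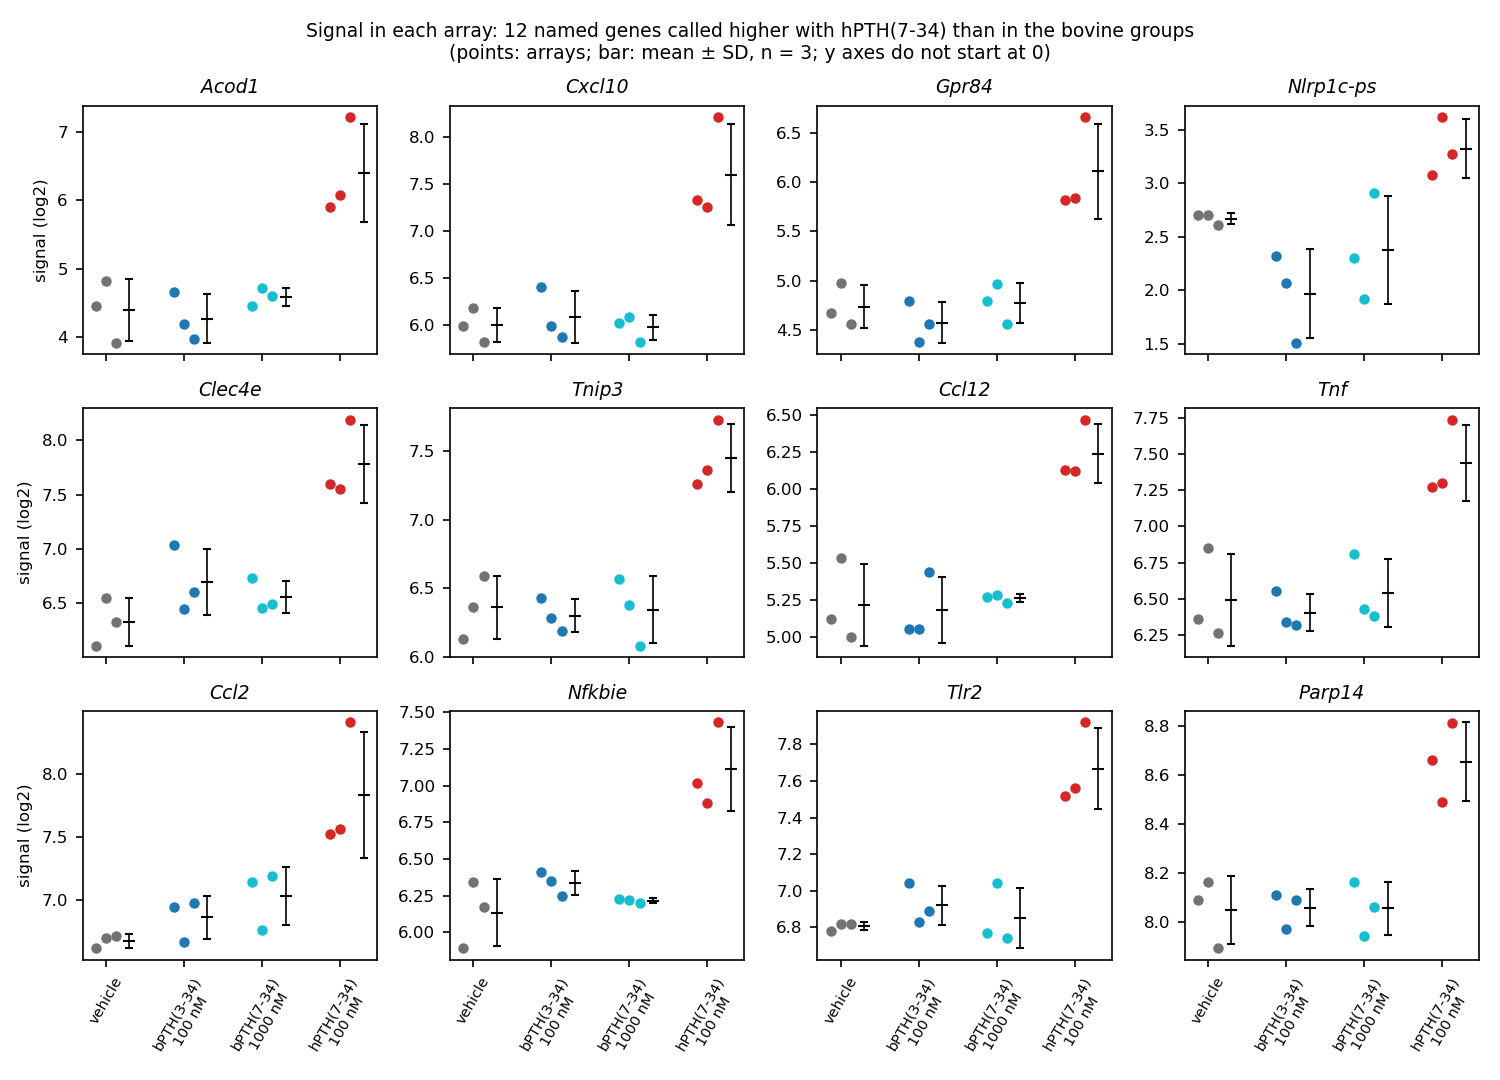
Signal (log2, y axis, not starting at 0) in each vehicle, bPTH(3-34), bPTH(7-34) and hPTH(7-34) array for 12 named genes called higher with hPTH(7-34) than with the bovine fragments; points are arrays and bars are the mean ± SD of 3. The 3 hPTH(7-34) points lie above the 6 bovine points in every panel because the rule for naming genes required it. In Acod1 they lie at 5.90, 6.08 and 7.22 against at most 4.72.

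Interferon-stimulated genes had the highest median difference of the 20 pathway lists, 0.27. Irf1, a transcription factor induced by interferon and NF-kappaB, measured 6.55, 6.55 and 6.78 with hPTH(7-34). The bPTH(3-34) arrays gave 6.06, 6.09 and 5.95, and the bPTH(7-34) arrays 6.10, 6.11 and 6.16. Both bovine groups lay around the vehicle level of 6.08 to 6.15, and the difference was 1.46-fold (0.55 ± 0.09, adjusted p = 0.0158). Parp14, an ADP-ribosyltransferase linked to interferon responses, measured 8.66, 8.49 and 8.81 against 7.94 to 8.16 (1.51-fold, adjusted p = 0.0315). The Irf1 call was lost in 3 and the Parp14 call in 7 of the 9 fits that left out 1 array.

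Of 33 interferon-stimulated genes measured, 2 were called higher and 0 lower, where 0.0812% of all genes were called higher. The 2 were Irf1 and Cxcl10, the latter also counted among the chemokines. In 30 of the 33 the difference was above 0 (90.9%, against 51.9% of all genes). In 13 (39.4%, against 2.12%) the 3 hPTH(7-34) arrays lay above all 6 bovine arrays. This list was likewise chosen with results of these data known and gives no independent support. The guanylate-binding protein gene Gbp5 had 3.66, 4.05 and 5.12 with hPTH(7-34) against 2.54 to 3.51 in the bovine arrays, a difference of 1.07 that missed the threshold, with an SE of 0.24 (adjusted p = 0.141). Igtp, an interferon-induced GTPase, differed by 0.49 (adjusted p = 0.234). Averaged over the 33 genes and set against the vehicle mean, the hPTH(7-34) arrays stood at 0.32, 0.35 and 0.43 and the bovine arrays between -0.10 and 0.13. The vehicle arrays themselves ran from -0.17 to 0.21, so the bovine groups lay within the vehicle spread and hPTH(7-34) above it.

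Among the other genes called higher were 2 with roles in cell shape and signalling. Pstpip2, an F-actin-binding adaptor whose loss causes sterile bone inflammation in mice, measured 6.93, 6.93 and 7.04 against 6.37 to 6.54 (1.42-fold, adjusted p = 0.00951). When the clusters of the gene were averaged its difference was 0.28 and the call was lost. Rrad, a Ras-related GTPase, measured 6.68, 6.33 and 6.47 against 5.81 to 6.17 (1.46-fold, adjusted p = 0.0333). Rrad lost its call in 7 of the 9 fits that left out 1 array.

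Nlrp1c-ps, a pseudogene of the Nlrp1 inflammasome sensors, was called at 2.22-fold (adjusted p = 0.0333), but at signals of 3.08, 3.62 and 3.27 against 1.51 to 2.91. Its mean lay below the lowest array median, as did those of 3 other called genes. A further 4 called genes fell outside the naming rule and are given because they complete the count. Gm12250, listed in RefSeq also as Irgb10, an immunity-related GTPase, measured 6.72, 6.86 and 7.17 against 5.56 to 6.20 (1.98-fold, adjusted p = 0.0154). Gm8995 measured 6.48, 6.30 and 6.47 against 5.02 to 5.87 (2.00-fold, adjusted p = 0.00112), and BE692007 measured 2.00, 1.97 and 2.37 against 1.41 to 1.73 (adjusted p = 0.0316).

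The genes called lower had low signals. Sowahb, which encodes an ankyrin-repeat protein, measured 3.59, 3.48 and 3.31 with hPTH(7-34) against 3.94 to 4.10 in the bovine arrays (0.68-fold, adjusted p = 0.0158). Speer4b measured 1.13, 0.84 and 0.84 against 1.40 to 1.93 (0.64-fold, adjusted p = 0.0391). Olfr12, an olfactory receptor gene outside the naming rule, measured 2.44, 2.06 and 2.23 against 2.93 to 3.43 (0.51-fold, adjusted p = 0.00948). For Olfr12 the vehicle arrays, at 2.75, 2.63 and 2.32, lay nearer to hPTH(7-34) than the bovine arrays did, and they overlapped the hPTH(7-34) arrays.

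At the matched dose of 100 nM, hPTH(7-34) against bPTH(3-34) called 11 genes higher and 0 lower, 0.0496% of those tested, and each differed by at least 1.5-fold. They were Acod1, Ccl12, Clec4e, Cxcl10, Gpr84, Irf1, Nfkbie, Nlrp1c-ps, Tlr2, Tnf and Tnip3, all of them among the 21. The human peptide was 4.37-fold higher for Acod1 (2.13 ± 0.27, adjusted p = 0.00353), 2.22-fold higher for Tnip3 (1.15 ± 0.14, adjusted p = 0.00304) and 2.89-fold higher for Gpr84 (adjusted p = 0.00586). Cxcl10 was 2.85-fold higher (adjusted p = 0.0222), Tnf 2.05-fold (adjusted p = 0.02) and Tlr2 1.68-fold (adjusted p = 0.0119). Ccl2 was 1.96-fold higher and missed the threshold (adjusted p = 0.105). This count leaned on single arrays: 2 genes, Acod1 and Tnip3, were called without bPTH(3-34) replicate 2, and 4 without bPTH(3-34) replicate 3 or hPTH(7-34) replicate 3. With the 6 arrays alone 0 genes were called (limma, smallest adjusted p 0.526). The differences cannot change in that fit. The 11 genes, picked on these same arrays, had an unadjusted p of at most 0.00146 in it.

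Beyond these genes the matched pair could differ without being called. The 95% interval of the difference lay within 1.5-fold in either direction for 78.9% of genes and within 2-fold for 98.3%. For the comparison with both bovine fragments these shares were 86.6% and 99.2%. The smallest called difference was 0.59 at the matched dose and 0.50 against both fragments on the log2 scale.

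Set against the same 3 vehicle arrays, hPTH(7-34) called 16 genes, 13 higher (0.0586% of genes) and 3 lower (0.0135%), 0.0721% in all. bPTH(3-34) called 0 genes (0%; smallest adjusted p 0.446, 1313 genes at an unadjusted p under 0.05) and bPTH(7-34) at 1000 nM 0 genes (0%; smallest adjusted p 0.272, 1151 genes at an unadjusted p under 0.05). With only the arrays of hPTH(7-34) and vehicle, 0 genes were called for hPTH(7-34) too (smallest adjusted p 0.318, 1647 genes at an unadjusted p under 0.05). Of the 21 genes, 13 were also called against vehicle, where 0.0721% of all genes were. The same 3 hPTH(7-34) arrays enter both comparisons, so this overlap is not separate support. Acod1 stood 2.00 above vehicle with hPTH(7-34) (adjusted p = 0.00284), -0.13 with bPTH(3-34) and 0.19 with bPTH(7-34). Clec4e stood 1.45, 0.37 and 0.23 above vehicle in the same order, and Ccl2 1.16, 0.19 and 0.36. Irf1, Parp14, Rrad, Nlrp1c-ps, BE692007, Sowahb, Speer4b and Olfr12 were not called against vehicle. For Irf1 the difference from vehicle was 0.52 (adjusted p = 0.102).

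**Figure D2:**
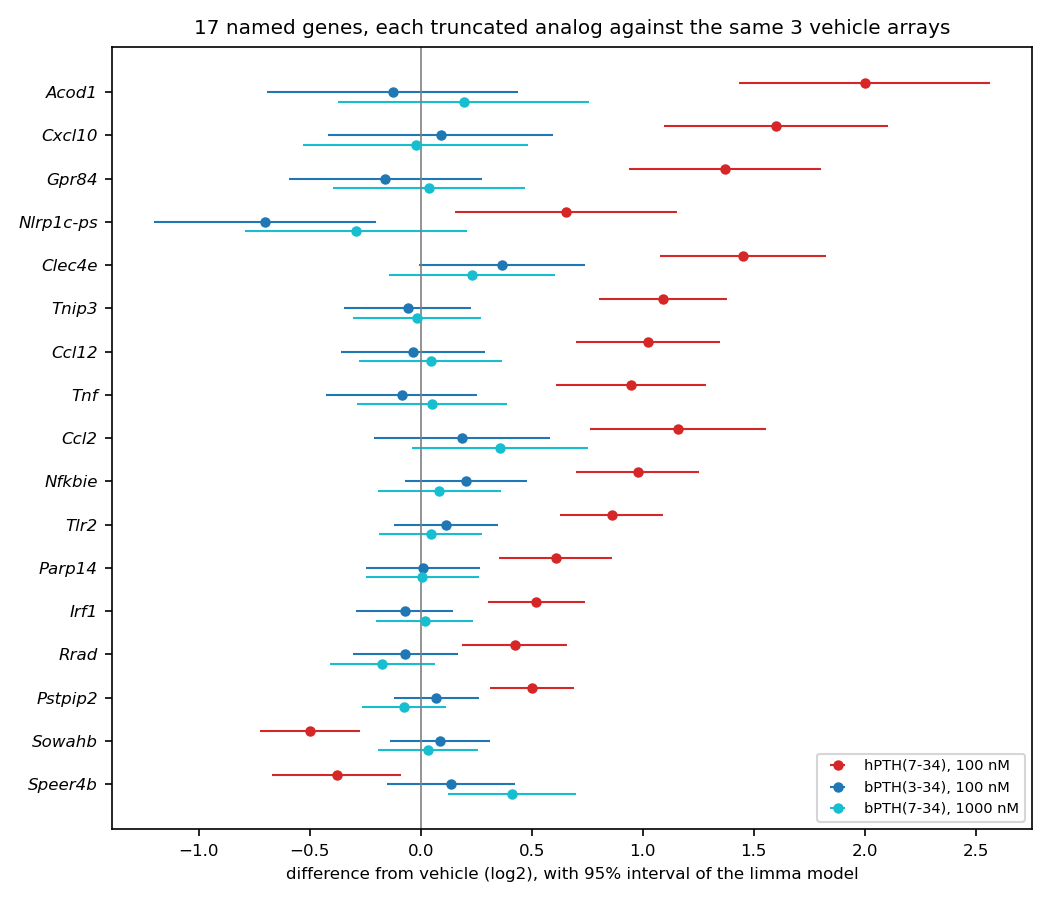
Difference from the mean of the same 3 vehicle arrays (log2, x axis) for 17 named genes called between hPTH(7-34) and the bovine fragments, with the 95% interval of the limma model; red is hPTH(7-34) at 100 nM, blue bPTH(3-34) at 100 nM and cyan bPTH(7-34) at 1000 nM. For Acod1 hPTH(7-34) lies at 2.00 and the bovine fragments at -0.13 and 0.19.

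The 3 genes called lower than vehicle with hPTH(7-34) showed a graded pattern. They fall outside the naming rule and are given because they complete that count. Hoxa7, a homeobox transcription factor, measured 2.97, 3.10 and 3.10 with hPTH(7-34), 3.23 to 3.53 with the bovine fragments and 3.67 to 3.91 with vehicle. Gbx2, another homeobox gene, measured 4.76, 4.76 and 4.65, against 4.80 to 5.14 and 5.25 to 5.38. Nrarp, a feedback inhibitor of Notch signalling, measured 4.02, 3.85 and 3.96, against 4.14 to 4.37 and 4.50 to 4.56. In each the bovine arrays lay between hPTH(7-34) and vehicle without overlap. Of all genes, 1.3% had the 3 hPTH(7-34) arrays below all 6 bovine arrays, a share that takes no account of vehicle. None of the 3 genes was called between hPTH(7-34) and the bovine fragments. For Hoxa7 the means of hPTH(1-31), hPTH(1-34) and PTH(1-36), at 3.56, 3.42 and 3.46, also lay below the vehicle mean of 3.78. For Gbx2 the means of these peptides were 5.06, 5.31 and 5.17 in the same order, against a vehicle mean of 5.30. For Nrarp they were 4.54, 4.42 and 4.25, against 4.53 with vehicle and 4.24 with the bovine fragments.

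The intact peptide hPTH(1-34), also at 100 nM and from Bachem, put these levels in context, without a test against hPTH(7-34). Its mean was 6.76 ± 0.24 (SD, n = 3) for Gpr84, 7.02 ± 0.30 for Ccl12 and 7.89 ± 0.18 for Tnf, against 6.11 ± 0.48, 6.24 ± 0.20 and 7.44 ± 0.26 with hPTH(7-34). For Acod1 it was 5.59 ± 0.04 against 6.40 ± 0.72, and for Cxcl10 6.57 ± 0.41 against 7.60 ± 0.53. The means lay close together for Tnip3 (7.39 ± 0.02 against 7.45 ± 0.25), Clec4e (7.71 ± 0.14 against 7.78 ± 0.36) and Ccl2 (7.83 ± 0.06 against 7.84 ± 0.50). For Nfkbie the hPTH(1-34) mean was 6.95 ± 0.08 against 7.11 ± 0.29. For Irf1 (6.05 ± 0.12), Parp14 (8.01 ± 0.06) and Gm12250 (5.87 ± 0.27) it lay at the vehicle means of 6.11, 8.05 and 5.87, while hPTH(7-34) stood at 6.63, 8.65 and 6.92.

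Genes of the PTH pathway itself were not called between the truncated peptides. A panel of 19 PTH-responsive and bone genes had 0 called in either comparison, with a median difference of 0.06. The 95% interval of the difference from both bovine fragments lay within 1.5-fold for 18 of the 19 genes, and at the matched dose within 1.5-fold for 14 and within 2-fold for 19. Nr4a2, an immediate target of cyclic AMP, measured 6.27, 6.04 and 6.11 with hPTH(7-34), 5.84, 5.91 and 5.98 with bPTH(3-34), and 5.76, 6.17 and 6.15 with bPTH(7-34). The hPTH(7-34) arrays overlapped those of bPTH(7-34) and vehicle (5.89 to 6.55) and lay just above those of bPTH(3-34). The difference was 0.17 (95% interval -0.10 to 0.44), whereas hPTH(1-34) stood 2.79 above vehicle.

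Tnfsf11, the osteoclast factor RANKL, differed by 0.13 (95% interval -0.21 to 0.48) and by -0.11 (-0.51 to 0.29) at the matched dose, where hPTH(1-34) stood 3.12 above vehicle. Vdr, the vitamin D receptor, differed by 0.05 (-0.13 to 0.24), and Pth1r, the PTH receptor, by 0.06 (-0.17 to 0.28). Fos was the panel gene with the largest difference, at 4.94, 4.91 and 5.08 against 4.34 to 4.88 (0.27, adjusted p = 0.695). The interval of Ptgs2 reached farthest from 0, at -0.21 to 0.66, with 1 bPTH(7-34) array at 6.97 and the other bovine arrays between 5.65 and 6.22. Of 26 genes that respond early to cyclic AMP and CREB, 0 were called and the median difference was 0.04. Averaged over these 26 genes, all arrays of the truncated peptides stood between -0.04 and 0.06 of the vehicle mean, and the hPTH(1-34) arrays between 1.22 and 1.34 above it.

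**Figure D3:**
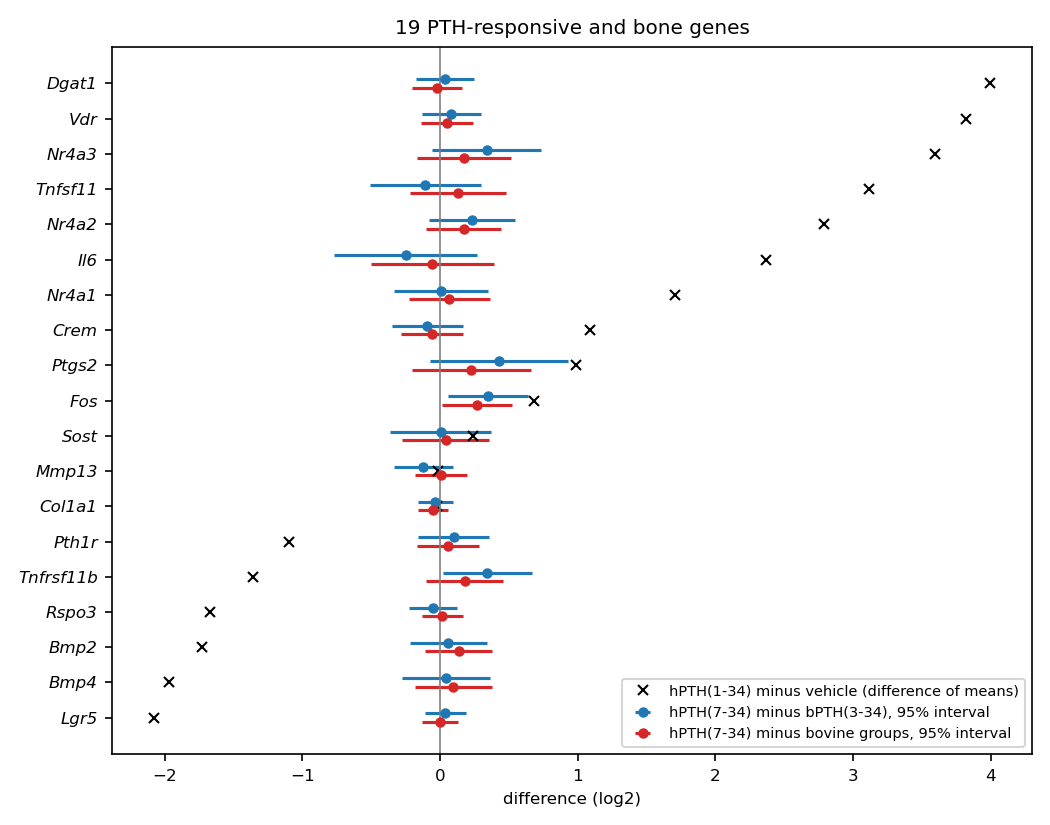
Difference (log2, x axis) for 19 PTH-responsive and bone genes: red, hPTH(7-34) minus the bovine fragments, and blue, hPTH(7-34) minus bPTH(3-34), with 95% intervals of the limma model; crosses, hPTH(1-34) minus vehicle as a difference of means. The red and blue points lie near 0, with Tnfsf11 at 0.13 and -0.11, while crosses run from -2.08 for Lgr5 to 4.00 for Dgat1.

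Across the 20 pathway lists, calls between hPTH(7-34) and the bovine fragments fell in the inflammatory ones. The lists were chosen with results of these data known, so where the calls fell is not independent support. Over all genes 0.0812% were called higher. The osteoclast-supporting cytokines had 1 of 11 called, which was Ccl2, already counted among the chemokines. Lists with 0 called included acute phase and metal-binding defence proteins (22 genes, median 0.12), complement and antigen presentation (24 genes, 0.11, with 21 above 0), leukocyte adhesion (11 genes, 0.06) and prostaglandin and nitric oxide synthesis (20 genes, 0.05). The adhesion receptor Icam1 came nearest, at 7.98, 8.15 and 8.67 against 7.45 to 7.85 (0.65, adjusted p = 0.0632). Ch25h, which makes 25-hydroxycholesterol, differed by 0.56 (adjusted p = 0.141). Osteoblast matrix and differentiation genes (25, median 0.03), matrix proteases and inhibitors (26, 0.02), JAK-STAT feedback (15, 0.02), cell cycle (26, 0.04), stress genes (21, 0.09, with 17 above 0) and MAP kinase phosphatases with AP-1 (21, 0.12) also had 0 called. Wnt genes (28) and cholesterol synthesis genes (18) had 0 called and medians below 0, at -0.05 and -0.06. The largest shift among Wnt genes named was in Lgr4, an R-spondin receptor, at -0.25 (adjusted p = 0.485), and among cholesterol genes in Lss at -0.20 (adjusted p = 0.765).

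**Figure D4:**
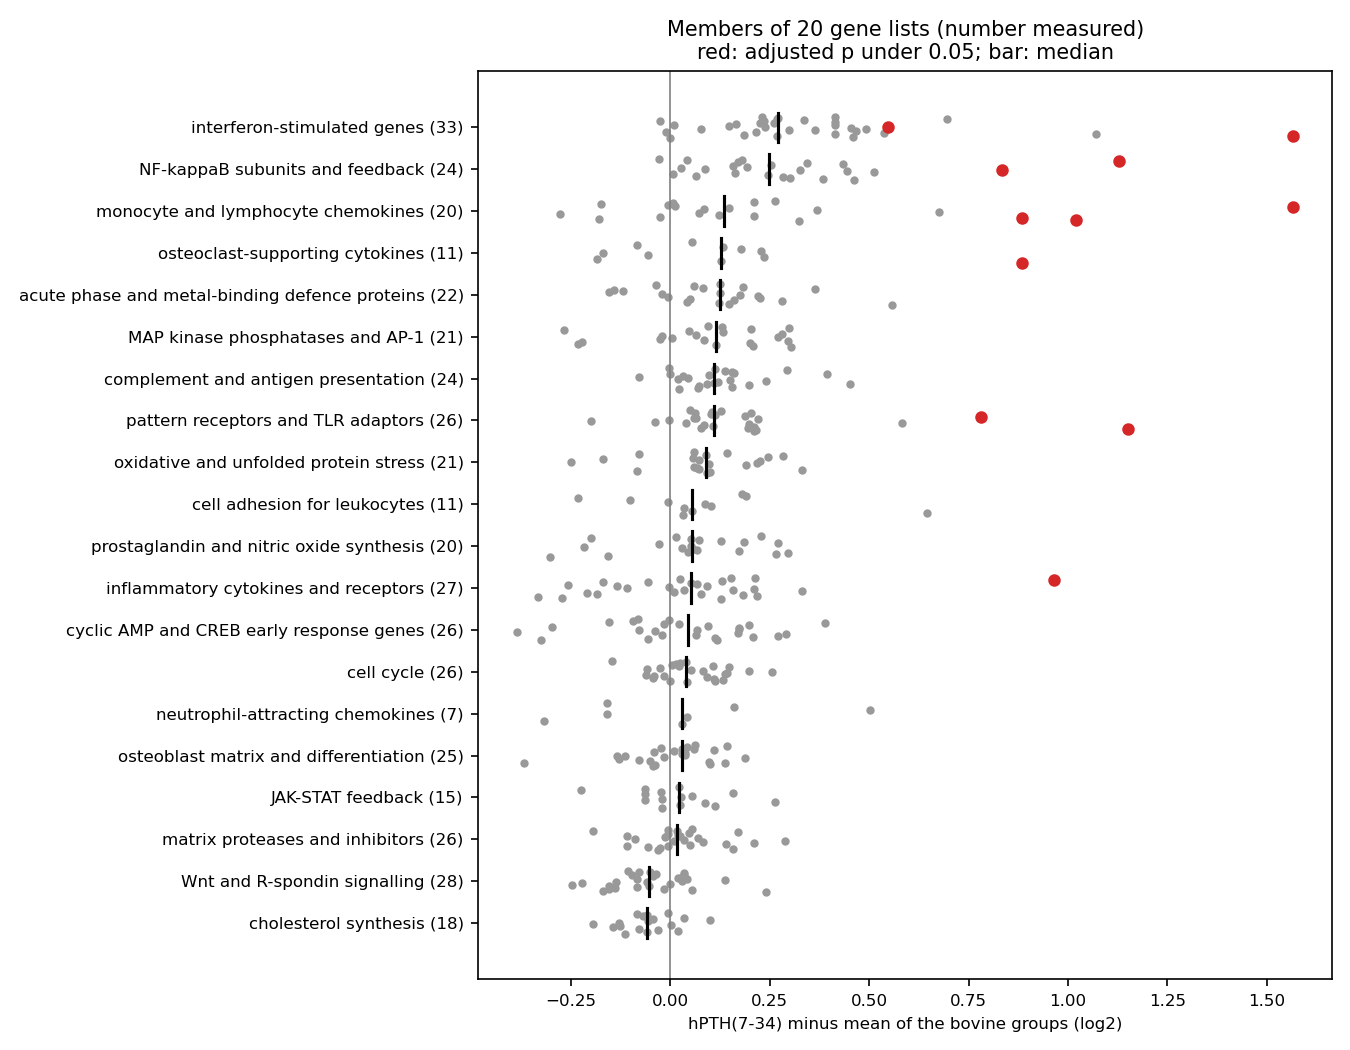
Difference between hPTH(7-34) and the bovine fragments (log2, x axis) for the measured members of 20 gene lists, ordered by median (black bar); each point is a gene, and red points were called at an adjusted p under 0.05. The medians of the interferon-stimulated and NF-kappaB lists, 0.27 and 0.25, lie farthest to the right, and the cholesterol list, at -0.06, lies farthest to the left. The lists were chosen with results of these data known.

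Markers of other cell types were set beside these results because Acod1, Clec4e and Gpr84 are known as myeloid genes. Of 9 macrophage and osteoclast markers, 0 were called, and 9 had a difference above 0, of at most 0.21 (Cd14, adjusted p = 0.822). Their summed level was 13.67 to 13.85 (log2) with hPTH(7-34) and 13.59 to 13.77 with bPTH(3-34). It was 13.60 to 13.72 with bPTH(7-34) and 13.57 to 13.74 with vehicle, so the ranges overlapped. Averaged over the 9 markers and set against the vehicle mean, hPTH(7-34) replicates 1, 2 and 3 stood at 0.193, 0.197 and 0.0348. Same-numbered arrays stood lower each time, at 0.123, 0.0893 and 0.0337 with bPTH(3-34) and 0.057, 0.0348 and -0.0196 with bPTH(7-34). In replicate 3 the step above bPTH(3-34) was very small. The summed level of 7 osteoblast markers was 14.06 to 14.13 with hPTH(7-34) against 14.11 to 14.16 and 14.14 to 14.18 with the bovine fragments. Neutrophil and mast cell markers summed to 5.79 to 6.03 with hPTH(7-34), and lymphocyte markers to 7.24 to 8.03 against 7.06 to 7.59 with the bovine fragments. Most of the lymphocyte sum was Cd4, at 6.72 to 7.77 with hPTH(7-34) and 6.60 to 7.26 with the bovine fragments. Cd3d and Cd3e had means of 3.11 and 2.22 with hPTH(7-34) and differed by -0.13 and -0.25. Of the 7 lymphocyte markers, 4 had a difference above 0. No marker of lymphocytes, endothelium, adipocytes, chondrocytes or muscle was called. The 5 muscle markers had a median difference of -0.23, with 1 of 5 above 0. Their summed level was 6.54 to 6.74 with hPTH(7-34), below every vehicle array (6.77 to 6.89) and overlapping the bovine arrays (6.65 to 6.97). The part of these cells in the differences between the peptides was not tested.

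Of the 18 genes called higher, 15 had their highest hPTH(7-34) value in replicate 3. Without that array 13 genes were called in place of 21, and 9 of the 13 were among the 21. Acod1, Cxcl10, Gpr84, Clec4e, Tnip3, Ccl12, Gm8995, Nfkbie and Tlr2 stayed called in each of the 9 fits that left out 1 array of the comparison.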

How the data were processed

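The deposited table holds 1 column of signals for each of 21 arrays. The authors' values are read as log2: RMA and the software Affymetrix Expression Console appear in the submitters' processing notes, with steps, versions, settings and base of the logarithm not given in the sources used here. They ran from 0.25 to 13.6, so every fold rests on that reading. RMA pulls arrays towards a common distribution, which hides shifts common to all genes. Of 41345 transcript clusters, 23521 had 1 gene symbol in the platform annotation. The cluster with the highest mean over 21 arrays stood for a gene, which left 22180 genes.

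A linear model with 1 term per treatment group (7 groups, 21 arrays) was fitted with lmFit and eBayes of limma 3.58.1 under R 4.3.3, and checked on simulated data. hPTH(7-34) was contrasted with the equally weighted mean of bPTH(3-34) and bPTH(7-34), with bPTH(3-34), and with vehicle, as was each bovine fragment. Tests were two-sided, with Benjamini-Hochberg adjustment over all genes and a threshold of 0.05. Contrasts with vehicle share its 3 arrays. Precision is limited by the number of arrays.

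Named genes were the 20 highest and 10 lowest called genes, leaving out provisional and olfactory names, up to 4 members of each list and the PTH panel. The compounds, genes and lists were chosen with earlier results of these data known. Of 503 listed genes, 463 were measured; the others were not analysed here.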

Additional observations from a re-analysis of the deposited data

Results flagged for a closer look

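Transcript clusters without a single gene symbol stood outside the comparisons. Among the 17824 of them, 2 were called higher with hPTH(7-34) than with the bovine fragments (limma, adjusted p = 0.0464 for each), and both carry several symbols in the annotation, so no gene is named. Cluster 17494651 had a mean of 8.26 with hPTH(7-34), 7.51 with the bovine fragments and 7.38 with vehicle. Cluster 17494664 had 7.79, 7.09 and 6.91.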

How the results depend on the processing

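Counts of called genes moved most with how spread was estimated. With limma's trend and robust options, 41 genes were called against both bovine fragments, 18 against bPTH(3-34), 34 for hPTH(7-34) against vehicle and 1 for bPTH(7-34) against vehicle. With only the groups compared, the counts for hPTH(7-34) were 0, 0 and 0 in the same order. Leaving out 1 array gave 12 to 24, 2 to 9 and 6 to 24. The lowest counts came without hPTH(7-34) replicate 2 (12), bPTH(3-34) replicate 2 (2) and vehicle replicate 3 (6). Other counts stayed within 1.5 times: against both fragments, 27 with genes of mean signal above 4, 15 after quantile normalization and 24 with the 6 bovine arrays as 1 group. With a replicate block, 19, 10 and 15 genes were called. Deviations of same-numbered arrays correlated across all genes between -0.08 and 0.09 over 18 pairs. A correlation over all genes cannot show whether replicate numbers pair the samples for some genes. Cd68, for instance, was lowest in replicate 3 of vehicle (11.29, 11.49 and 11.08), of hPTH(7-34) (11.42, 11.56 and 11.22) and of every other group. Of 116 other named genes 8 passed under some alternative, among them Icam1, Ccl7 and Nfkb2. No called difference changed sign. In fits that left out 1 array this could not happen, because the arrays of the called genes did not overlap. Background correction and slide could not be varied from a processed table.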

Other observations

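Xist, the X-inactivation transcript, was looked at after its values were seen, as a sign of the mix of male and female pups. It measured 6.82, 6.97 and 6.93 with hPTH(7-34), 6.21 to 6.71 with the bovine fragments and 6.80, 6.50 and 6.71 with vehicle. The difference from the bovine fragments was 0.48 and was not called (limma, adjusted p = 0.102). The Y-linked genes Eif2s3y, Kdm5d and Uty overlapped between hPTH(7-34) and the bovine fragments.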
